A study of Mus musculus with 23 samples.

Results

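Ribosomal protein genes encode the proteins of the cytosolic ribosome, and 83 gene symbols of this kind were listed among the 9480 genes of the 2 deposited count tables. They were taken by name: symbols that start with Rpl or Rps and a number, together with Rplp0, Rplp1, Rplp2 and Rpsa, without the S6 kinases and without symbols that end in -ps, which mark pseudogenes. Of the 83, 31 belong to the small (40S) subunit, 39 to the large (60S) subunit and 3 to the stalk (Rplp0, Rplp1 and Rplp2), and 9 are paralogs or retrocopies. The remaining symbol, Rps19bp1, fits the name rule but encodes a nucleolar protein that binds Rps19 and is no ribosomal protein. All 83 were listed for the precipitated RNA and 62 of them also for the flow-through RNA.

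The RNA came from the spinal cord of young adult mGFAP-Cre-RiboTag mice, whose genotype field reads wild type. In RiboTag mice, Cre replaces the last coding exon of Rpl22 by a copy with a hemagglutinin (HA) tag, and here Cre under a mouse Gfap promoter directs the tag to astrocytes. Every animal had a severe crush spinal cord injury (SCI) at thoracic level 10, and the central 3 mm of the lesion was taken at 14 days. Ribosome-associated RNA precipitated through the tag (HA) and RNA left in the flow-through (FT) were sequenced from the same tissue. Hydrogel with growth factors, injected at 2 days, gave 3 HA and 5 FT libraries. Hydrogel CT, whose abbreviation the labels do not explain, was injected at the same time and gave 3 HA and 4 FT libraries. Mice with SCI only gave 4 HA and 4 FT libraries. Which factors the hydrogel held is unsettled: the title of the series says FGF and EGF, while columns of the tables say BDNF and NT3. The SCI only libraries carry title numbers 9596 to 9935 and those with hydrogel 1645 to 1762. No label says what these ranges mean, and anything that goes with them cannot be told apart from hydrogel. Since the labels do not say that each number is a separate animal, p-values measure the spread between libraries.

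A ribosome is built from ribosomal RNA and a single copy of most ribosomal proteins, so cells make these proteins in step with each other. The messenger RNAs of ribosomal proteins and of several translation factors begin with a C followed by a run of pyrimidines, the 5′ terminal oligopyrimidine (TOP) tract. Through this tract their translation is switched on with mTORC1 activity and off when mTORC1 is inhibited, when the mRNAs leave polysomes and are held by the protein LARP1.

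The start regions of the members at both ends of the HA against FT order are shown because the TOP tract lies there. Each covers 25 bases before and 50 bases from an annotated start, from RefSeq promoter entries on GRCm38.p6. Capitals mark the longest run made of a C and at least 6 further bases that are each C or T, on the gene's own strand. The 3 members with differences of -2.33 to -2.24 (log2 HA over FT, below) come first, Rps24 with both of its annotated starts, and the 2 highest follow. Rpl23a, the lowest, has no entry in that table.
Rps24 first start, chr14:24490653-24490727, plus strand: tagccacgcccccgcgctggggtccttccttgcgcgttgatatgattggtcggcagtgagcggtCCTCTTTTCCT
Rps24 second start, chr14:24490728-24490802, plus strand: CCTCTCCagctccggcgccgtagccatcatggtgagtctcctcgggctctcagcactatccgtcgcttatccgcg
Rps4x, chrX:102189342-102189416, minus strand: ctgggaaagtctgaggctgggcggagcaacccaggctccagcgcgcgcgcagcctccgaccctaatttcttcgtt
Rps12, chr10:23787160-23787234, minus strand: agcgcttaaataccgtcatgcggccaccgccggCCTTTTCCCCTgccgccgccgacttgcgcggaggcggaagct
Rpl7l1, chr17:46782607-46782681, minus strand: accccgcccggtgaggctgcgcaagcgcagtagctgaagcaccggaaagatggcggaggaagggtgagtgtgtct
Rps19bp1, chr15:80264257-80264331, minus strand: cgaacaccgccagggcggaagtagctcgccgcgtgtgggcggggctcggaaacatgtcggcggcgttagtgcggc

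Rps24 and Rps12 held runs of 11 bases, and the 2 Rps24 windows join, so that its first run continues into the second window. Rps4x, Rpl7l1 and Rps19bp1 held no such run in these windows. Of the 60 members with an entry, 46 (76.7%) had a run in this window on their own strand, against 9444 of 27025 genes with an entry (34.9%). On the opposite strand the run was found in 14 members (23.3%) and in 39.0% of all genes. By the difference between fractions, 11 of 15 that passed the test below (73.3%) and 16 of 22 that were tested and did not pass (72.7%) had it. The letters CCGGAAG, which GABP binds, were found on either strand of the 300-base entry in 24 members (40%), against 9.93% of all genes and 18.9% of the genes tested below. AAGATGG, which YY1 binds, was found in 10 members (16.7%), against 7.28% of all genes and 9.30% of those tested. Matches describe letters and do not show binding.

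Ribosomal protein genes took a smaller share of the HA reads than of the FT reads in every pair of libraries with the same title number. Shares were taken over protein-coding genes listed in both tables, without Lars2. The sum held all 62 shared members, 60 of which were annotated protein-coding for FT. In the 10 paired HA libraries the summed share was lowest at 0.983%, had a median of 1.35% and was highest at 1.99%. In the paired FT libraries the lowest was 2.84%, the median 5.12% and the highest 7.79%. The HA share was thus below the FT share in 10 of 10 pairs, and the ratio of HA to FT lay between 0.201 and 0.394. By treatment, HA averaged 1.33 ± 0.134% with growth factors, 1.12 ± 0.144% with hydrogel CT and 1.60 ± 0.298% with SCI only (SD, n = 3, 3 and 4). FT averaged 4.56 ± 3.14% with growth factors, 3.37 ± 1.51% with hydrogel CT and 6.70 ± 1.05% with SCI only (SD, n = 5, 4 and 4).

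**Figure D1:**
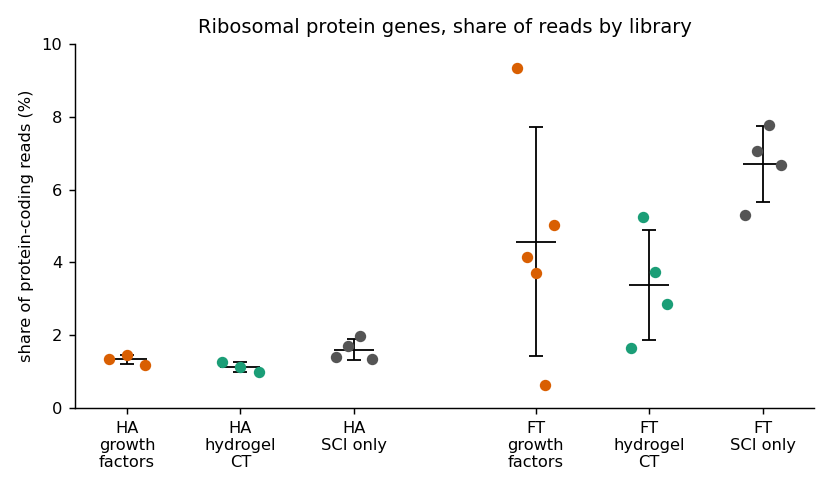
Share of protein-coding reads, without Lars2, taken by the ribosomal protein genes (%), 1 point a library. Bars give group mean and SD, with HA on the left and FT on the right. The HA libraries lie between 0.983% and 1.99%, while FT libraries spread between 0.616% and 9.34%, most widely with growth factors.

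Depth differed with fraction and treatment. Protein-coding reads, without Lars2, numbered 2846894 to 5800354 in HA libraries of hydrogel CT, 282734 to 1523813 with growth factors and 202299 to 780502 with SCI only. In FT they numbered 26899 to 255152 in libraries of SCI only and 2251 to 115730 in those of the hydrogel groups. The widest FT shares came from shallow libraries without an HA partner. FT library 1729 held 61 member reads (0.616%, 95% Wilson interval 0.480 to 0.790%) and FT library 1645 held 209 (9.34%, 8.20 to 10.6%), both with growth factors. Wilson intervals cover counting error only, since amplified reads are not independent molecules.

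The HA libraries carried the astrocyte markers of their label, with a summed level of 4484 to 9641 CPM over 14 markers (CPM, counts relative to the TMM-scaled library size), and the FT libraries held them too, at 279 to 2455 CPM. Of these 14, all tested, 12 were higher in HA and none lower, among them Gfap with 1853 ± 682 CPM in HA and 174 ± 83.3 CPM in FT (SD, n = 10 each). Of 9 tested microglia and macrophage markers 8 were lower in HA, with a summed level of 17.4 to 854 CPM in HA and 96.3 to 7918 CPM in FT over the 11 markers listed in both tables. Of 9 tested neuron markers 7 were lower, with sums of 45.7 to 296 CPM in HA and 370 to 1689 CPM in FT over 10 markers. Of 11 oligodendrocyte markers 4, and of 6 progenitor markers 5, were higher in HA, and 1 of 3 fibroblast and pericyte markers was lower. No endothelial or red blood cell marker was listed in both tables. The part of these cell types in the ribosomal protein result was not tested. In bulk RNA, fewer cells of a type and less RNA per cell cannot be told apart.

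Gene by gene, 50 of the 62 shared members had enough reads to be tested among 3295 genes, and 23 of the 50 were lower in HA (46%) and 0 were higher. Over all genes tested, 7.37% were lower and 13.2% were higher (edgeR quasi-likelihood test, terms for treatment and fraction, Benjamini-Hochberg adjusted p under 0.05). At an unadjusted p under 0.05, 28 members and 1067 genes differed in either direction. The median log2 difference, HA over FT, was -1.24 over the 50 members and 0.28 over all genes. Of the 50, 44 had a negative difference, against 1316 of the 3295. In all 10 pairs the HA level was the lower in 8 members (16%) and in 74 of all genes (2.25%). DESeq2 called 27 members lower and 0 higher, and its share over all genes is not given here.

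**Figure D2:**
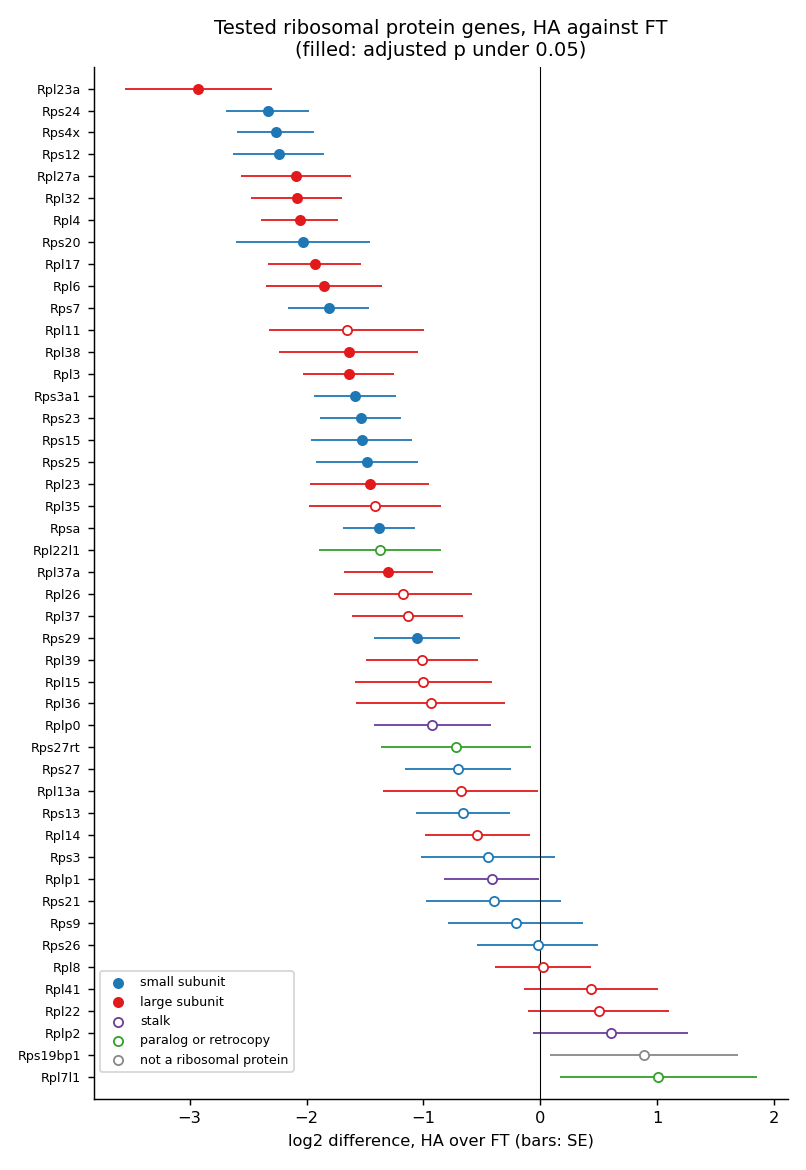
Log2 difference of 46 of the 50 tested genes, HA over FT, with SE bars, in order and coloured by class; filled points passed at an adjusted p under 0.05. All 21 filled points lie left of 0, between -2.93 and -1.05, and belong to the small or large subunit.

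All 20 tested small subunit genes had a negative difference, with a median of -1.43, and 12 passed. Among those that passed, Rps24 was at -2.33, Rps4x at -2.26, Rps12 at -2.24, Rps20 at -2.03 and Rps7 at -1.81 on the log2 scale. Also past the threshold were Rps3a1 at -1.58, Rps23 at -1.54, Rps15 at -1.53, Rps25 at -1.48, Rpsa at -1.38 and Rps29 at -1.05. Rps23 sits at the decoding centre, and Rps25 is needed by several viral internal ribosome entry sites. Rps27 at -0.70, Rps13 at -0.66, Rps3 at -0.45, Rps21 at -0.40, Rps9 at -0.21 and Rps26 at -0.02 did not pass. Rps3 and Rps9 line the mRNA entry channel, and Rps26 lies at the mRNA exit.

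Among 23 tested large subunit genes the median log2 difference was -1.42, and 11 passed. Rpl23a at -2.93, Rpl27a at -2.09, Rpl32 at -2.08, Rpl4 at -2.06, Rpl17 at -1.93 and Rpl6 at -1.85 led them. Rpl38 at -1.64, Rpl3 at -1.64, Rpl23 at -1.46 and Rpl37a at -1.3 also passed. The call was lost in 12 of 16 alternatives for Rpl38, in 9 of 17 for Rpl23 and in 8 of 17 for Rps29, and for Rpl38 and Rpl23 the title number as a block was among them. Rpl4 lines the tunnel through which the new protein leaves, Rpl3 reaches towards the peptidyl transferase centre, and Rpl38 is known in mice for its role in translation of Hox mRNAs. Below the threshold were Rpl11 at -1.65, Rpl35 at -1.42, Rpl26 at -1.18, Rpl37 at -1.13, Rpl39 at -1.01, Rpl15 at -1.0, Rpl36 at -0.94, Rpl13a at -0.68 and Rpl14 at -0.54. Positive values were found for Rpl8 at 0.03, Rpl41 at 0.44 and Rpl22 at 0.50, none of them past the threshold. The sign of Rpl8, and those of Rps26 and Rps9, turned under some scalings, filters or left-out libraries.

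None of the 3 stalk genes passed. The stalk recruits elongation factors to the large subunit, with Rplp0 as its base and Rplp1 and Rplp2 as its arms. Their log2 differences were -0.92 for Rplp0, -0.42 for Rplp1 and 0.60 for Rplp2. Neither did a paralog or retrocopy: Rpl22l1, a paralog of Rpl22, had -1.37 (past the threshold with the block, at -1.65), Rps27rt -0.72 and Rpl7l1 1.01, and Rps19bp1 had 0.89.

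Rpl23a, a large subunit protein at the mouth of the exit tunnel, had 0.546, 1.3 and 5.64 CPM as the lowest, median and highest of 10 HA libraries, against 0, 12.8 and 30.7 CPM in FT. The groups overlapped only through the FT library of number 1687, at 0, and those of 1685 and 1759, and HA was lower in 9 of 10 pairs. The difference had an SE of 0.63 and an adjusted p of 0.000718 (edgeR). It rests on 144 FT reads in all.

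Rps24, needed for maturation of the small subunit rRNA and mutated in some human Diamond-Blackfan anaemia, had 19.1, 40.3 and 109 CPM in HA and 67.1, 210 and 352 CPM in FT. HA was lower in 10 of 10 pairs, although the groups overlapped, through the HA library of 1687 and the FT libraries of 1732 and 1762 (SE 0.36, adjusted p = 1.2e-05, edgeR).

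Rps4x, the X-linked small subunit gene whose human counterpart has a Y-linked copy, had 16.4, 39.7 and 66.2 CPM in HA and 123, 171 and 256 CPM in FT. Every HA library was below every FT library, which held for 1 of the 50 members and for 0.425% of all genes tested. Its adjusted p was 5.71e-06 with an SE of 0.33 (edgeR).

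Rps12, a protein of the small subunit head, had 20.4, 37.7 and 134 CPM in HA and 72.1, 220 and 420 CPM in FT. HA was lower in 9 of 10 pairs, and pair 1732 went the other way with 134 CPM in HA and 102 CPM in FT. The SE was 0.39 and the adjusted p 5.75e-05 (edgeR).

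Rpsa had the most reads of any member in both tables, 17832 in HA and 6729 in the paired FT libraries. It encodes a small subunit protein also known as the laminin receptor precursor. It had 66.1, 213 and 401 CPM in HA and 162, 351 and 1645 CPM in FT, with overlap between the groups and 9 of 10 pairs lower in HA (SE 0.31, adjusted p = 0.0012, edgeR). Per kilobase of transcript, Rplp1 had the highest median level of the members in HA at 173 CPM per kb, ahead of Rpsa at 65.1 and Rps29 at 50.1 CPM per kb. In FT the order began with Rps24 at 925, Rps12 at 724 and Rps3a1 at 495 CPM per kb, and the ranges over libraries overlapped in both fractions. The levels per kb come from a separate fit of each fraction, over 10 HA and 13 FT libraries. They give an order within a fraction and cannot be compared between fractions. The order also rests on annotated transcript lengths, such as 3706 bases for the Rps20 transcript with more HA reads. It depends on read assignment too, which was not stated.

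At the other end, Rpl7l1, a paralog of Rpl7 linked to large subunit assembly, had 0, 2.96 and 37.8 CPM in HA and 0, 1.02 and 8.05 CPM in FT. Its highest HA value came from number 1732 alone, and 5 FT libraries held no read (SE 0.84, adjusted p = 0.44, edgeR). Rps19bp1 had 0, 2.06 and 23.6 CPM in HA and 0, 1.11 and 8.63 CPM in FT, with 5 FT libraries at 0 (SE 0.80, adjusted p = 0.484, edgeR). Neither showed a difference detectable at this depth.

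**Figure D3:**
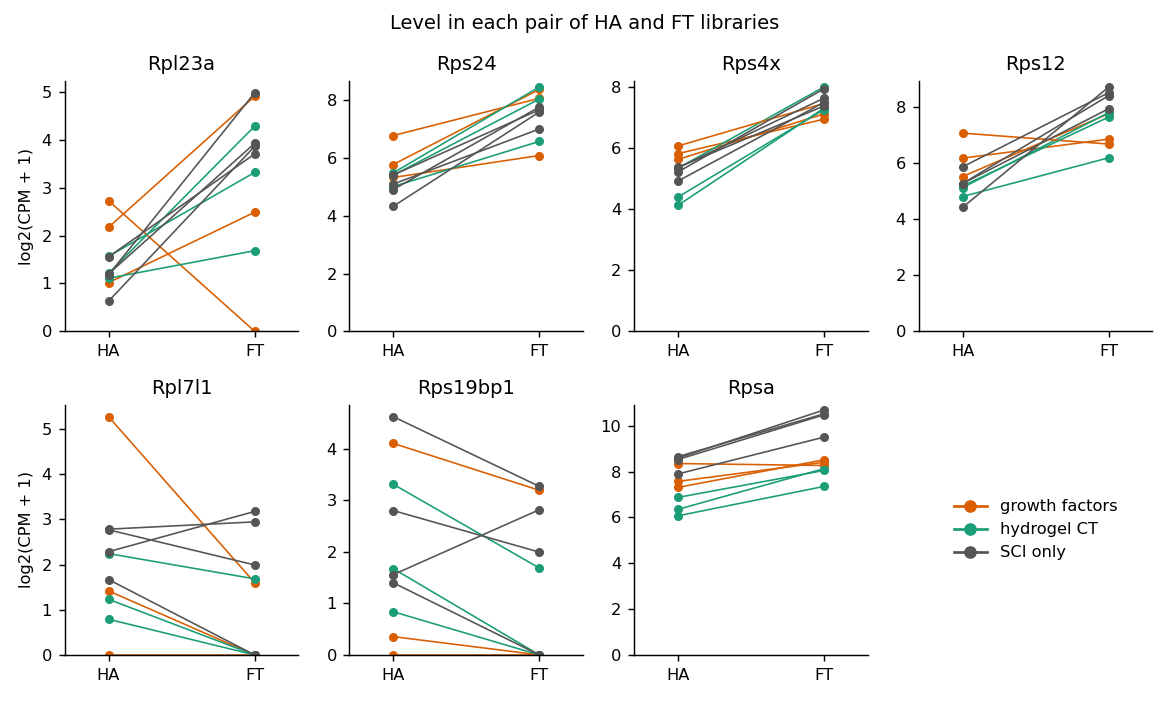
Level of 7 members as log2(CPM + 1) in each of 10 pairs, HA left and FT right, lines joining libraries of the same title number, coloured by treatment. Lines run upward to FT in 10 of 10 pairs for Rps24 and Rps4x and in 9 for Rpl23a, Rps12 and Rpsa, while those of Rpl7l1 and Rps19bp1 run both ways.

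Rpl22, which carries the tag in these mice, had 0, 12.8 and 105 CPM in HA and 3.84, 9.59 and 46.1 CPM in FT as lowest, median and highest. The highest HA value was number 1685, with 1133 reads, and the HA library of 1687 had 0 reads. Counts by gene do not separate the tagged from the untagged mRNA.

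For 4 members, 2 transcripts of the same gene were counted in both tables, and the share of the less used transcript was compared within pairs. Rps24 differed between the fractions. Its shorter transcript, ENSMUST00000112384, took 24.9 ± 7.26% of the reads of both in HA and 6.81 ± 7.21% in FT (SD, n = 10 each). It was higher in HA in 10 of 10 pairs, by 18.1 percentage points on average, and the exact two-sided paired permutation test gave p = 0.00195, the smallest it can give, and 0.00781 after adjustment over the 4 genes. HA libraries ranged between 9.48% (22 of 232 reads, 95% Wilson interval 6.35 to 13.9%) and 33.3% (390 of 1171, 30.7 to 36.1%). FT libraries ranged between 1.39% (1 of 72, 0.246 to 7.46%) and 26.3% (26 of 99, 18.6 to 35.7%). The highest FT share was in the pair of number 1732, where HA had 31.2%. With SCI only libraries, the difference was 22.9 points in 4 pairs (p = 0.125, the smallest the exact test can give with 4).

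The 2 Rps24 transcripts share their middle exons and differ at both ends (GENCODE M21, mm10, chromosome 14, plus strand). ENSMUST00000169826, with more reads, starts at 24490718, the second base of the pyrimidine run printed in capitals in the first window, which spans 24490717 to 24490727. Its last exons are 24495430 to 24495449 and 24495775 to 24495845. ENSMUST00000112384 starts 37 bases earlier at 24490681 and ends at 24495432, so it lacks the final exon. How reads shared by both were assigned was not stated, and whether the start or the end of the transcript carries the difference was not tested.

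**Figure D4:**
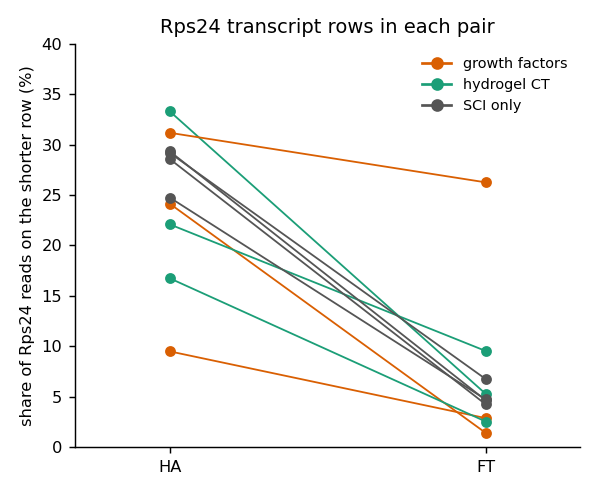
Share of the reads of both Rps24 transcripts on the shorter one, ENSMUST00000112384 (%), in each pair, HA left and FT right, coloured by treatment. The HA point lies above the FT point in 10 of 10 pairs, least in number 1732 (31.2% in HA and 26.3% in FT).

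Of the other 3 genes, Rpl22 had 1.21 ± 2.07% of its reads on ENSMUST00000156445 in HA and 40.1 ± 33.5% in FT over 9 pairs (SD; exact paired permutation p = 0.0156, adjusted 0.0312). The FT value rests on 138 reads in 9 libraries, with 2 to 91 a library, and the library with 91, number 9596, had 7.69%. With SCI only libraries the difference was -21.2 points, against -38.9 over all pairs (exact permutation p = 0.25 in 4 pairs). Rps20 had 4.33 ± 3.20% in HA and 8.31 ± 8.68% in FT (SD, n = 10 each, exact permutation p = 0.176), and Rps15a had 40 FT reads in 5 pairs (exact permutation p = 1).

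Other genes of the translation machinery were taken from lists made beside the members. Of 12 tested genes known for TOP mRNAs other than ribosomal proteins, 7 were lower and 1 higher in HA, with a median of -1.52. Eef1a1, which brings aminoacyl-tRNA to the ribosome, had 224 ± 62.7 CPM in HA and 1287 ± 719 CPM in FT (log2 -2.44, adjusted p = 7.85e-06). Pabpc1, the poly(A) binding protein, had a log2 difference of -2.06, Eif3f, an initiation factor subunit, -2.07, and the elongation factor Eef2 -1.59, all 3 past the threshold by edgeR (n = 10 each). The list of elongation factors shares genes with this one, and 4 of its 5 tested genes were lower. Of 24 tested initiation factors, 3 were lower and 3 higher, with a median of 0.29, and the 3 lower ones, Eif3e, Eif3f and Eif3h, also stand in the TOP list. Of 24 tested mitochondrial ribosomal protein genes, none was lower and 1 was higher, Mrpl28, with a list median of 0.83. Of 12 tested genes of ribosome biogenesis 1 was higher, Sbds, which acts in maturation of the large subunit, with a list median of 0.02; Npm1 and Ncl are in this list and the TOP list. The background percentages are those given for the members above.

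Within each treatment, the fractions were compared over 3 or 4 pairs. On simulated counts, the test within SCI only found 19% of log2 changes of 2 and 83% of those of 4, with 5 false calls. With SCI only, 17 of 50 members differed, all lower in HA, where 5.58% of all genes differed in either direction (edgeR, 6 group means). Rps12 had the smallest p, with a log2 difference of -3.16 (SE 0.53, adjusted p = 0.000366). Rpl23a at -3.77, Rpl27a at -2.77, Rps20 and Rpl17 at -2.72, Rps24 at -2.58, Rps4x at -2.44 and Rpl32 at -2.34 also passed. Further members that passed were Rpl37a at -2.18, Rps7 at -1.96, Rpsa at -1.92, Rplp1 and Rps23 at -1.90, Rps3a1 at -1.86, Rpl4 at -1.73 and Rps29 at -1.73. The count depended on each of the 4 pairs: it was 5 without 9596, 2 without 9843, 5 without 9874 and 3 without 9935.

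With hydrogel CT, 3 members differed, all lower in HA, against 2.19% of all genes: Rps4x at -2.90 (SE 0.56, adjusted p = 0.0038), Rps24 at -2.61 (adjusted p = 0.0217) and Rps12 at -2.37 (adjusted p = 0.0266, edgeR). With the title number as a block the count was 5. It was 1 without 1724, 0 without 1759 or without 1762, 5 without 1687, 6 without 1732 and 7 without 1685. These counts hold both directions: among the 7, Rplp2 was called higher in HA, with 0 reads in FT with hydrogel CT. With growth factors, 1 member differed, Rpl4 at -2.62 (SE 0.60, adjusted p = 0.00393, edgeR), where 12.9% of all genes differed, a larger share than among the members. With the block the count was 2, with DESeq2 10, and it was 4 without 1685, 3 without 1687 and 2 without 1732, 9843 or 9935. These counts too hold both directions, and no share over all genes is given for them or for those of hydrogel CT. The median log2 difference over the members was -1.69 with SCI only, -1.41 with hydrogel CT and -0.74 with growth factors, against 0.14, 0.40 and 0.49 over all genes. With growth factors these medians were -0.09 over the members and 1.12 over all genes without the pair of number 1732, and -1.11 and 0.10 with DESeq2 size factors. Unfiltered, those of hydrogel CT were -0.99 and 0.67.

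The differences between treatments in the HA to FT difference were tested as interactions, and 0 of 50 members passed in any of them (edgeR). Of all genes, 0% passed for growth factors against hydrogel CT, 0% for hydrogel CT against SCI only and 0.0607% for growth factors against SCI only. At an unadjusted p under 0.05, 2, 4 and 5 members differed in these 3 tests, and DESeq2 called 0, 0 and 1. Rplp1 came nearest, for growth factors against SCI only, with an interaction of 3.25 on the log2 scale (SE 0.72, adjusted p = 0.0539), followed by Rps12 at 2.37 and Rplp0 at 2.95. Rplp1 passed with the block (adjusted p = 0.0182) and with DESeq2 (adjusted p = 0.00717), and without the pair of number 1685. For growth factors against hydrogel CT, Rps20 at 2.93, Rplp0 at 2.45 and Rps4x at 1.53 had the smallest p. For hydrogel CT against SCI only they were Rplp2, Rplp1 at 1.87 and Rpl37a at 1.88. No fitted value is given for Rplp2, since it had 0 reads in the 4 FT libraries of hydrogel CT, with 62.7 to 196 CPM in those of SCI only.

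Among FT libraries, 28 members were tested among 610 genes, and the differences lay between the hydrogel groups and SCI only. Hydrogel CT against SCI only gave 3 lower members and 0 higher, where 3.11% of all genes differed. Rplp1 had 160, 82.7, 114 and 53.3 CPM with hydrogel CT, against 1449, 2120, 1764 and 1694 CPM with SCI only, and the groups did not overlap (log2 -4.14, SE 0.79, adjusted p = 0.00316). Rpsa had 160, 443, 358 and 274 CPM with hydrogel CT and 1537, 3302, 3865 and 3645 CPM with SCI only, again without overlap (log2 -3.30, SE 0.77, adjusted p = 0.0208). The share of all genes without overlap between these groups was not counted. Rpl37a, a zinc-binding protein of the large subunit, had 187, 88.6, 75.2 and 30.5 CPM with hydrogel CT and 483, 750, 782 and 502 CPM with SCI only (log2 -2.84, SE 0.80, adjusted p = 0.0471, edgeR). These hydrogel CT values stand on few reads: 6 to 38 a library for Rplp1, 6 to 119 for Rpsa and 4 to 25 for Rpl37a. The count of 3 became 1, Rplp1, without CT library 1724, 1759 or 1762 or without SCI library 9874 or 9935.

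Hydrogel with growth factors against SCI only gave 1 lower member, Rplp1, and 0 higher in FT, where 3.77% of all genes differed. It had 668, 131, 181, 94.3 and 84.7 CPM with growth factors, against the SCI only values above (log2 -3.04, SE 0.70, adjusted p = 0.0156, edgeR). The value of 668 CPM was library 1645, with 18 Rplp1 reads. Counted in either direction, 0 members passed with DESeq2 size factors in edgeR, 5 with DESeq2 and 2 without library 1732. With DESeq2, Rpl15 (log2 2.50) and Rpl22l1 (2.33) were higher with growth factors, while Rplp1, Rpsa and Rpl37a were lower. Both comparisons use the same SCI only libraries. The median log2 difference over the 28 members was -0.75 for hydrogel CT and -0.97 for growth factors against SCI only, with -0.01 and 0.01 over all genes. Unfiltered, the medians were -1.05 and -1.03 over the members and -0.79 and -0.62 over all genes, so most of the gap was lost. With a minimum of 5 CPM they were -0.895 and -0.998 over the members and -0.67 and -0.57 over all genes. The median of the members for growth factors was -1.60 without library 1732 and -0.49 without library 1729. Growth factors against hydrogel CT gave 0 of 28 members in FT, where 0% of all genes differed. Its smallest p were those of Rpsa at 1.09, Rplp1 at 1.10 and Rps20 at -0.92 on the log2 scale (all adjusted p = 0.956, edgeR), and 0 members and 23 genes had an unadjusted p under 0.05. DESeq2 also called 0 members.

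Other values of the FT libraries differed along with the members. The summed level of microglia and macrophage markers over 11 markers was 108 to 2115 CPM with growth factors, 160 to 3877 CPM with hydrogel CT and 7170 to 17825 CPM with SCI only. Of 6 tested, 1 was lower and none higher for hydrogel CT, and 3 were lower and 1 higher for growth factors, each against SCI only (edgeR). Of 10 tested astrocyte markers, 1 was higher and none lower for hydrogel CT against SCI only, with a median log2 difference of 1.01, and none passed for growth factors (median 0.53). A single gene row, Yam1, took 13.8 to 88.7% of the reads with growth factors, 28.3 to 67.9% with hydrogel CT and 89.7 to 93.1% with SCI only in FT. Depth differed too, as given above, and the part of these values in the result was not tested. In the authors' deposited table, which tests transcripts, 8 of 66 member transcripts (12.1%) passed a false discovery rate of 0.05 in FT for hydrogel CT over SCI only, all lower, against 8.20% of all 5001 transcripts. For growth factors over SCI only the authors' deposited table had 11 of 66 (16.7%), all lower, against 9.08%. Rplp1 led both, at -4.08 and -3.57 on the authors' log2 scale. For hydrogel CT over growth factors the authors' deposited table had 0 transcripts in FT.

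**Figure D5:**
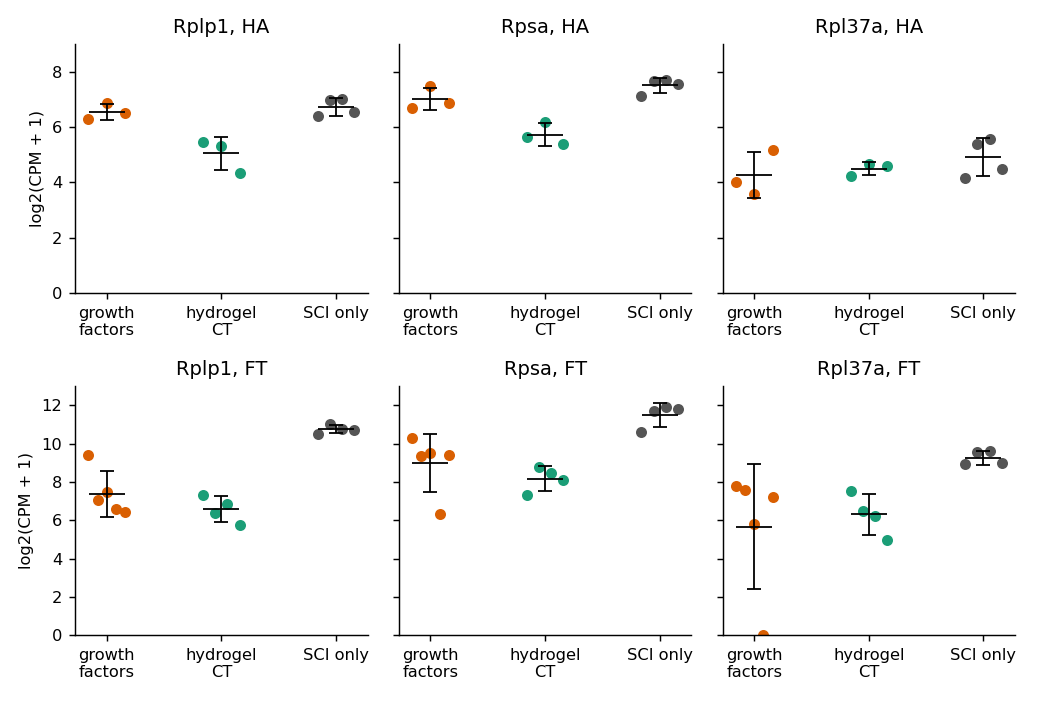
Rplp1, Rpsa and Rpl37a as log2(CPM + 1) in HA (upper row) and FT (lower row), 1 point a library, with mean and SD of the log values, for growth factors, hydrogel CT and SCI only. In FT the SCI only points of Rplp1 lie between 1449 and 2120 CPM, above every hydrogel point, while in HA the SCI only and growth factor points overlap.

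Among HA libraries, 72 members were tested among 6654 genes and 0 passed in any comparison (edgeR). On simulated counts, the test of growth factors against hydrogel CT found 2% of log2 changes of 2 and 21% of those of 4. It also made 5 false calls. A missing call in HA thus does not show equal levels. Of all genes 0.0902% passed for growth factors against hydrogel CT, 0.195% for hydrogel CT against SCI only and 0.436% for growth factors against SCI only. At an unadjusted p under 0.05 these tests had 4, 4 and 9 members (5.56%, 5.56% and 12.5%), against 13.3%, 12.7% and 21% of all genes, so the members lay below the share of all genes. DESeq2 called 1, 3 and 2 members, and its share over all genes is not given here. In the authors' deposited table, 0 of 121 member transcripts passed in HA in any of the 3 comparisons.

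For growth factors against hydrogel CT in HA, the smallest p were those of Rplp0 (log2 2.72), Rplp1 (1.48) and Rpsa (1.3), with adjusted p between 0.250 and 0.270 (edgeR). Rplp0 had 247, 38.8 and 10.4 CPM with growth factors, against 18.4, 12.3 and 14.4 CPM with hydrogel CT, and library 1685, with 4056 reads, stood above the others. For hydrogel CT against SCI only, the smallest p were those of Rpsa (log2 -1.78, adjusted p = 0.147), Rpl39 (2.43, adjusted p = 0.177) and Rplp1 (-1.67, adjusted p = 0.184, edgeR). Rpsa had 48.5, 71.3 and 40.8 CPM with hydrogel CT, against 137, 199, 209 and 188 CPM with SCI only. The 2 groups did not overlap. Rpl39, a small protein of the exit tunnel, had 32.7, 23.9 and 40.1 CPM with hydrogel CT, against 8.83, 5.79, 6.31 and 2.79 CPM with SCI only, also without overlap. The share of all genes without overlap was not counted for these groups, and Rpsa and Rpl39 were named for their small p. With DESeq2 all 3 genes passed.

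For growth factors against SCI only in HA they were Rplp0 (log2 2.33, adjusted p = 0.128), Rps6 (4.82, adjusted p = 0.138) and Rps26 (1.81, adjusted p = 0.191, edgeR). Rps6, the substrate of the S6 kinases, had 12, 0.255 and 0.859 CPM with growth factors, against 0.0748, 0, 0.459 and 0 CPM with SCI only, where the 4 libraries held 5 reads together. Rps26 had 27.8, 9.69 and 18.6 CPM with growth factors, against 4.94, 3.67, 9.87 and 2.79 CPM with SCI only, and its groups overlapped at 9.69 and 9.87 CPM.

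The other 21 members were listed in the HA table only and could not be compared between fractions. Their HA reads numbered 22 to 766 over 10 libraries, with a median of 100. They hold 6 small subunit genes, with Rps6 at 766 reads and Rps27a, a fusion of a ribosomal protein with ubiquitin, at 51. A further 10 are large subunit genes, led by Rpl27 at 148 reads. The 5 paralogs and retrocopies among them are Rps4l at 560, Rpl36al at 406, Rps27l at 317, Rps3a2 at 279 and Rps3a3 at 126 reads. Reads of such copies and of their parent genes cannot be told apart here, because neither strand nor counting rules were stated. Reads on the -ps symbols that were left out came to 0 to 5.79 for each 100 member reads. A further 12 shared members had too few reads to be tested.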

How the data were processed

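The authors deposited raw counts per Ensembl transcript, with their own log2 fold change and false discovery rate (an adjusted p-value), per the file headers. CASAVA 1.8.2, edgeR and mm10 come from the submitters' processing notes; aligner, counting program and strand setting: not given in the sources used here. Row totals start at 10 (HA) and 11 (FT), so rarer transcripts are not listed; 45 per-sample columns were not used, and rows without a symbol (at most 0.319% of a library's counts) were left out. Counts were summed per symbol and tested with edgeR 4.0.16 (R 4.3.3; TMM, filterByExpr with a minimum count of 10, quasi-likelihood, two-sided), checked on simulated data. For HA against FT the simulation found 58% of log2 changes of 2 and 99% of those of 4, with 11 false calls. For hydrogel CT against SCI only in FT it found 56% and 98%, with 4 false calls. An SE is the log2 difference divided by the square root of F. HA and FT were compared over 10 title numbers and 4781 genes present in both tables; within a fraction the 3 groups shared a fit, so CPM of the 2 kinds of fit differ in scale. Pairing is inferred from shared numbers and the study description; deviations from group means correlated at 0.0086 to 0.104 within pairs, above 0.1 in 2 of 10. Libraries of a group differed by 4.61 to 267 chi-square per degree of freedom, so none was a copy. Transcripts were matched to GENCODE M21 (98.3% of HA and 99.1% of FT rows); permutation tests used scipy 1.17.1. Alternatives were DESeq2 1.42.0, other scalings and filters, the pair as a block, 1 transcript a gene and left-out libraries. Tested members are named for HA against FT, except 4 that count in the totals but are not reported here by name, with library values for the 4 lowest, 2 highest and the most read; elsewhere members that passed or had the 3 smallest p are named. Rpl22 and the transcript pairs were added after the data were seen. Members and lists were chosen with earlier results of these data known.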

Additional observations from a re-analysis of the deposited data

Results flagged for a closer look

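Within groups of 4 or 5 libraries, 9 of 57 sets of values held a library far from the rest by Dixon's test; chance gives about 1 in 20. In FT with growth factors, library 1732, the deepest of its group, stood apart in Rpl39 (250 CPM, others 0 to 26.9), Rplp0 (297 CPM, others 0 to 74.2) and Rpl7l1 (3 reads, 4.03 CPM, others 0). Rplp1 stood apart in FT library 1645 of the same group, at 668 CPM against 84.7 to 181 in the others. In FT with hydrogel CT, library 1759 was the only one with reads of Rpl7l1 and of Rps19bp1, each with 1 read (3.01 CPM). Where all other libraries are at 0, any read gives the largest possible gap, so such flags say little. In FT with SCI only, Rpl23a was at 72.1 CPM in library 9874 (others 27.2 to 34.9) and Rps24 at 272 CPM in library 9596 (others 478 to 495). In HA with SCI only, Rps6 was at 0.459 CPM in library 9874, against 0 to 0.0748 in the others.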

How the results depend on the processing

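For HA against FT, the count of lower members was 19 to 27 over the alternatives and 22 with the replicate block, and the count of higher members was 0 throughout. The members' median lay between -1.42 and -1.10 and that of all genes between 0.19 and 0.39, 0.20 with DESeq2 size factors. Of the 23 called members, 17 passed in all 17 alternatives where they were tested, and Rpl23, Rpl37a, Rpl38, Rps20, Rps25 and Rps29 lost the call in at least 1, Rpl23 and Rpl38 with the block too; none changed sign, and 5 others passed in at least 1. Rpl8 was -0.0400 with DESeq2 size factors, -0.0407 with protein-coding genes without Lars2, -0.0631 with DESeq2 and -0.161 to 0.271 with a pair left out. Rps26 was 0.279 unfiltered, 0.187 at a minimum of 5 CPM, 0.217 with the block and -0.234 to 0.276 with a pair left out. Rps9 was 0.0447 unfiltered and -0.446 to 0.0592 with a pair left out. The Rps15a transcript difference, HA minus FT, was 33.3 points with SCI only and -28.4 to 16.1 points with a pair left out. The counts below are of members called in either direction, and no share over all genes is given for the alternatives. Within SCI only the count was 11 unfiltered or at 5 CPM, and 2 to 19 with a pair left out. Within hydrogel CT it was 11 with DESeq2, 5 with the replicate block and 0 to 7 with a pair left out. Within growth factors it was 6 with DESeq2 size factors, 10 with DESeq2, 2 unfiltered, at 5 CPM, with 1 transcript a gene or with the block, and 1 to 4 with a pair left out. The interaction of growth factors against SCI only gave 1 member with DESeq2 or the block and 0 to 1 with a pair left out. In HA, DESeq2 gave 1, 3 and 2 members (growth factors against CT, CT against SCI only, growth factors against SCI only); CT against SCI only gave 1 at 5 CPM and 2 with only those groups fitted, and growth factors against SCI only 0 to 1 with a library left out. In FT, CT against SCI only gave 5 unfiltered, 6 at 5 CPM, 8 with only those groups, 5 without the 4 libraries under 10000 protein-coding reads (chosen after seeing the data) and 1 to 4 with a library left out; Rplp1 passed in all 16 alternatives, between -4.37 and -3.81. Growth factors against SCI only gave 0 with DESeq2 size factors, 5 with DESeq2, 4 unfiltered or at 5 CPM, 2 without those 4 libraries and 1 to 2 with a library left out. The block moved no other count of calls by over 1.5 times. The causes were not tested. Where a member has few FT reads, its tests are limited.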
